A study of Mus musculus with 12 samples.

Results

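Expression of 10 genes of the smooth muscle contractile apparatus was examined in clones of cells from the distal Fallopian tube (oviduct) of mice: Acta2, Actg2, Myh11, Tagln, Cnn1, Des, Lmod1, Mylk, Smtn and Myl9. All 10 were found by symbol among the 35509 genes of the count table. They were chosen by their measured values, because their mean level was close in both libraries of each mouse. That closeness, and the differences between clone sizes that follow from it, are therefore given as a description, and nothing is read from whether the 10 genes pass a test between clone sizes. The study used wild-type mice with MADM RG;GR alleles on a mixed background, aged 4 weeks and untreated. MADM (mosaic analysis with double markers) makes single cells and their descendants visible in different colours. From each of 6 mice, 200 cells of large clones and 200 cells of small clones were pooled into 1 library each, so that 12 libraries in 2 groups of 6 were compared. All groups carry the MADM alleles. The Cre driver and the sizes that separate large from small clones are not given in the sources used here.

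Smooth muscle shortens when myosin filaments pull on actin filaments. Calcium bound to calmodulin activates myosin light chain kinase, which phosphorylates the regulatory light chain of myosin. Serum response factor, with its partner myocardin, binds CArG boxes in the control regions of many contractile genes and drives their transcription. In the oviduct, smooth muscle forms a coat around the folded epithelium and moves the egg and embryo. Actin, light chain and kinase genes of this set are also transcribed at lower levels in other cell types, since non-muscle cells contract too.

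The CArG boxes found in promoters are shown first, because many contractile genes are known targets of the factor that binds them. RefSeq promoters of the GRCm38.p6 build, from 250 bases before to 50 bases after a gene's listed start, were held for 7 of the 10 genes. Actg2, Myh11 and Tagln had no entry. Boxes with all 6 middle bases A or T, and boxes with 1 of the 6 outside A or T, were searched for. The box reads as the same kind of sequence on both strands, so 1 search covers both. Of 32851 promoters of the same length, 1.63% held an exact box and 9.98% held either kind. Among the 7 members, Myl9 held an exact box, and Acta2 and Myl9 held boxes with 1 base outside. No box was found in these windows of Cnn1, Des, Lmod1, Mylk or Smtn. In the lines that follow, each stretch has 30 bases, is written 5′ to 3′ on the gene's strand, and has the box in capitals.
Myl9 exact box, 161 bases before the start, chr2:156775293-156775322, plus strand: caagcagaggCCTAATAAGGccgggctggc
Myl9 box with 1 base outside, 99 bases before the start, chr2:156775355-156775384, plus strand: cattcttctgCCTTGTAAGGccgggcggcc
Acta2 box with 1 base outside, 84 bases before the start, chr19:34255438-34255467, minus strand: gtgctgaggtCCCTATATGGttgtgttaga
Acta2 box with 1 base outside, 34 bases before the start, chr19:34255388-34255417, minus strand: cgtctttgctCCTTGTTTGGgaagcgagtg

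Actin genes resemble each other closely, which bears on how reads were divided among them. The coding sequences of Acta2 (1131 bases) and Actg2 (1128 bases) in the GENCODE M21 transcripts were 84.2% identical. Acta2 was 82.9% identical to Actb and 81.5% identical to Actg1, the non-muscle actins. The longest stretch without a difference was 29 bases between Acta2 and Actg2 and 56 bases between Acta2 and Actg1. The lines that follow show the stretch of 29 bases shared by Acta2 and Actg2 with 20 bases on each side, where the 10 differing bases are in capitals.
Acta2 coding bases 617 to 685: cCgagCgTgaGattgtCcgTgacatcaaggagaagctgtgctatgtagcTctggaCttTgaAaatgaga
Actg2 coding bases 614 to 682: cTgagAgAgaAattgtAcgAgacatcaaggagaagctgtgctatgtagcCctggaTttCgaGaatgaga
A read that fell wholly within such a shared stretch could be assigned to either gene. In the coding sequence, a read longer than 29 bases would meet a base that differs between Acta2 and Actg2. Read length was not examined here, so any effect on the counts of both actins is unmeasured.

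Each library held 3057979 to 4227129 expected counts, and between 12090 and 18889 genes had a count. A gene with 0 counts could have had up to 3 counts, or 0.585 to 1.33 CPM depending on the library. CPM are counts over the library size, which was scaled by TMM, a factor that evens out differences in composition. Chemoreceptor genes, for smell and taste, which are not known as oviduct genes, held 7.85% to 11% of counts in 5 libraries (large clones of mice 1, 2 and 6 and small clones of mice 3 and 6). They held 0.84% to 4.15% in the other 7.

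The contractile genes ranged from some counted in nearly all libraries to some with few or no counts in many. Some of the latter were high in single libraries, such as Actg2, with 97.4 CPM in small clones of mouse 1. Myl9 and Mylk had more than 3 counts in 12 of 12 libraries, and Des in 11. Acta2 and Tagln exceeded 3 counts in 5 libraries, Actg2 in 4, Lmod1 in 7, and Myh11, Cnn1 and Smtn in 8. Actg2 had 0 counts in 6 libraries and Acta2 in 5. Per kilobase of the longest protein-coding transcript in GENCODE M21, Myl9 had a mean of 111 CPM, Mylk 13.2 and Des 8.08. Actg2 had 8.09, Acta2 4.39, Smtn 3.899, Tagln 1.69, Cnn1 1.21, Lmod1 1.04 and Myh11 0.42 CPM per kilobase. These levels assume even coverage along transcripts, which was not checked. Thus the most specific markers of differentiated smooth muscle, Myh11 and Cnn1, stood below the light chain and kinase genes on the scale per kilobase.

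Genes of striated muscle give a background for these levels, since the oviduct should lack that tissue. On the same scale per kilobase, Tnnt2 (cardiac troponin T) had 42.5 and Myh7 (a slow myosin heavy chain) 15.2 CPM, while Acta1 and Actc1, the striated actins, had 0.36 and 0.38. The summed CPM of 10 striated genes ran from 13.6 to 344 across libraries, against 33.2 to 863 for the 10 contractile genes. Most of the striated sum was Myh7 and Tnnt2, with means of 94.9 and 51.0 CPM, and each other striated gene had a mean of at most 1.65 CPM. Acta1, Actc1 and Tnnt3 had 0 counts in 6 or more libraries. Of 8 epithelial markers, the keratin gene Krt18 had a mean of 2100.0 CPM per kilobase. Krt8 had 224.8, Cldn3 153.3, Krt19 126.5 and Krt7 27.2, while Epcam had 8.75, Cdh1 1.65 and Cldn4 0.21. Krt18 ran from 209.5 to 6900.0 CPM across libraries. The label of the set as smooth muscle genes describes their known function, and Myh11, Cnn1 and Tagln were low in these libraries. In pooled cells, fewer muscle cells and less RNA per cell cannot be told apart.

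**Figure D1:**
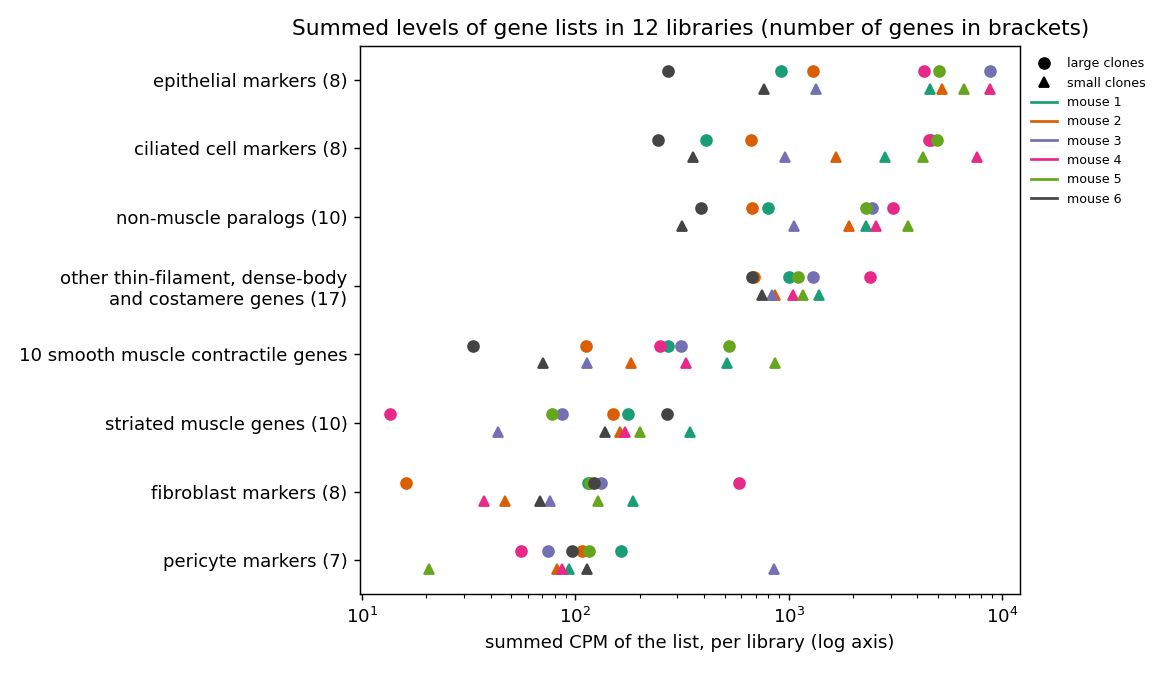
Summed CPM (log axis) of 8 gene lists in each library, with circles for large clones, triangles for small clones and a colour for each mouse. The 10 contractile genes lie between 33.2 and 863 CPM in sum, mouse 6 lowest in both clone sizes and mouse 5 highest in both.

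The mean level of the 10 genes was close in both libraries of a mouse and differed between mice, which is the pattern that selected the set. As the mean of log2(CPM + 1), it was 3.28 in large and 4.08 in small clones of mouse 1, 2.11 and 1.99 in mouse 2, and 2.39 and 1.88 in mouse 3. It was 3.16 and 2.66 in mouse 4, 3.92 and 4.57 in mouse 5, and 1.49 and 1.45 in mouse 6. Mouse 5 had the highest mean in both clone sizes and mouse 6 the lowest in both. The absolute difference of both libraries of a mouse averaged 0.44 ± 0.30 (SD, n = 6 mice). The 30 pairs of a large-clone and a small-clone library from different mice differed by 1.33 on average. Large minus small averaged -0.05 ± 0.56 (SD, n = 6), with large clones higher in 4 mice. Ordered by the mean of both libraries, mice stood at 4.24 (mouse 5), 3.68 (mouse 1), 2.91 (mouse 4), 2.13 (mouse 3), 2.05 (mouse 2) and 1.47 (mouse 6), and mice 2 and 3 differed by less than the average difference within a mouse.

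For single genes the absolute difference within a mouse averaged 1.31 over the 10 genes, against 1.93 between mice. A mean over 10 genes varies less than single genes do, so its 0.44 is not comparable with these values. Myl9 differed by 0.81 within and 2.19 between mice, Lmod1 by 0.96 and 1.76, Smtn by 1.40 and 2.38, and Acta2 by 1.93 and 2.23. It was smaller within mice than between mice for 9 of 10 genes. Among the 10848 genes tested, which leave out 6 of the 10, this held for 65.1%. Medians over the genes tested were 1.51 within and 1.76 between mice. Since closeness chose the set, nothing is read from the count of 9. Myh11 was the exception, at 1.74 within and 1.59 between mice. Within each mouse some of the 10 genes were higher and others lower in large clones, by number 3 and 7 in mouse 1, 4 and 5 in mouse 2, 5 and 2 in mouse 3, 5 and 5 in mouse 4, 3 and 7 in mouse 5, and 5 and 4 in mouse 6. In mouse 4, where the mean of the 10 differed by 0.50, the extremes were Acta2 at 2.85 and Mylk at -1.01, large minus small. In mouse 2, where the mean differed by 0.12, they were Cnn1 at 3.48 and Smtn at -2.38. The close means therefore included differences of opposite sign.

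The size of the agreement moved with how the genes were combined. When CPM were summed before taking log2, so that Myl9 and Mylk dominate, the difference within mice was 0.88, against 1.59 between mice, and in 5 of 6 mice the large clones had the lower sum. Without the actins Acta2 and Actg2 the mean differed by 0.25 within and 1.17 between mice, and large minus small was 0.22 ± 0.25 (SD, n = 6), with large clones higher in 5 mice. With 5 CPM added in place of 1, it differed by 0.28 within and 0.85 between mice, and large clones were higher in 2 mice in place of 4. The direction between clone sizes thus changed with the setting. The mean of the 6 genes too low for the model differed by 0.89 within and 1.29 between mice.

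**Figure D2:**
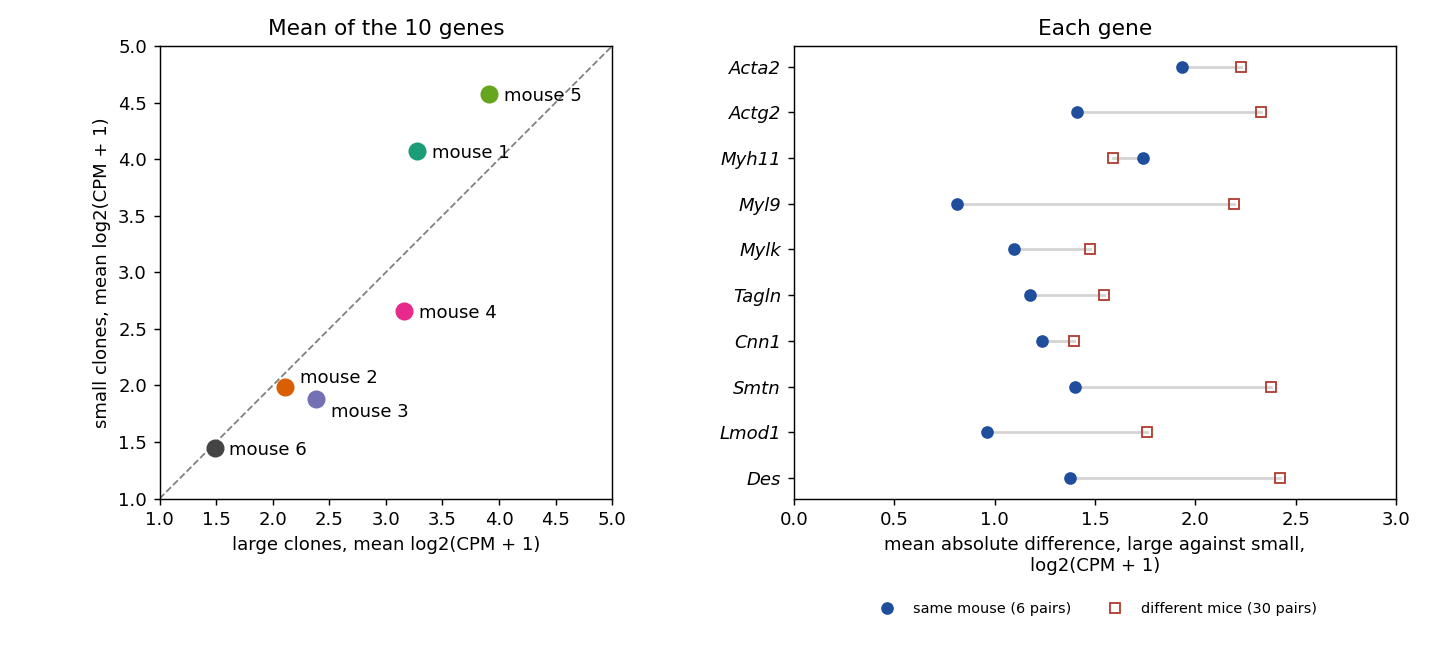
Left, mean log2(CPM + 1) of the 10 genes in large clones against small clones of each mouse, with the line of equality dashed. Right, mean absolute difference between a large-clone and a small-clone library of each gene, for the 6 pairs from 1 mouse (circles) and the 30 pairs from different mice (squares). On the left, mouse 5 is highest and mouse 6 lowest in both clone sizes. On the right, the circle lies left of the square for 9 of 10 genes, Myh11 being the other.

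Myosin and its regulators are described first. Coordinates are those of the count table, whose build is not named in it: the submitters' processing notes name GRCm38, but 2.97% of the 35494 gene IDs shared with the GENCODE M21 annotation of GRCm38 have the same chromosome and start there. They are therefore not comparable with the promoter coordinates given above. Myl9 (ENSMUSG00000067818, chromosome 2, 156617340 to 156623578) encodes the regulatory light chain of smooth muscle myosin. In mice 1 to 6 it had 132, 52.3, 203, 101, 232 and 5.46 CPM in large clones, and 200.2, 109, 47.4, 86.1, 325 and 3.78 CPM in small clones. Mouse 6 was low and mouse 5 high in both clone sizes, and the groups overlapped over nearly their whole range. The average was 121 ± 86.7 CPM over large-clone libraries and 129 ± 117 over small-clone ones (SD, 6 mice). Mouse 3 differed most between its libraries on the log2 scale, with 203 against 47.4 CPM.

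Mylk (ENSMUSG00000022836, chromosome 16, 34565580 to 34822790) encodes the kinase that phosphorylates this light chain. Large clones of mice 1 to 6 had 66.4, 40.6, 90.3, 83.9, 174 and 14.7 CPM, and small clones had 91.1, 54.9, 22.4, 170, 385 and 46.0 CPM. In 5 of 6 mice the large-clone library had the lower value, mouse 3 being the other one, and the groups overlapped. As for Myl9, mouse 5 was highest in both clone sizes. The average was 78.4 ± 54.7 CPM over large-clone libraries and 128 ± 136 over small-clone ones (SD, 6 mice).

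Myh11 (ENSMUSG00000018830, chromosome 16, 14012399 to 14109236), the smooth muscle myosin heavy chain, was scarce, with 107 counts over all libraries. Large clones ran from 1.65 over a median of 2.32 to 11.96 CPM, and small clones from 0 over a median of 0.34 to 7.82 CPM. In 5 of 6 mice the large-clone library had the higher value, and mouse 5 had the opposite order, with 1.97 and 7.82 CPM. Its highest libraries were thus in mice 3 and 5, of different clone size. The heavy chain did not share the mouse order of its light chain: in large clones mouse 3 led Myh11, whereas mouse 5 led Myl9.

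Actins were detected in few libraries. Acta2 (ENSMUSG00000035783, chromosome 19, 34218490 to 34232990), the vascular type of smooth muscle actin, had 360 counts in all, 65.8% of them in small clones of mouse 5. In mice 1 to 6 it had 0.21, 0.47, 0, 6.22, 9.0 and 0 CPM in large clones, and 21.5, 0, 0, 0, 68.6 and 1.26 CPM in small clones. Mouse 5 was high in both, mouse 3 had 0 in both, and mice 1 and 4 each had it mainly in 1 library. Actg2 (ENSMUSG00000059430, chromosome 6, 83489887 to 83513247), the enteric type, had 423 counts, 72.8% of them in small clones of mouse 1. It had 4.03 and 97.4 CPM in large and small clones of mouse 1, 2.25 and 24.6 CPM in mouse 5, and at most 0.70 CPM elsewhere. Both actins were therefore highest in small clones of mice 1 and 5. In mouse 5 Acta2 exceeded Actg2 in both libraries, and in mouse 1 Actg2 exceeded Acta2 in both, also per kilobase.

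Proteins that bind and regulate actin were low as well. Tagln (ENSMUSG00000032085, chromosome 9, 45840917 to 45847356; SM22, an actin cross-linker) reached 16.01 CPM in large clones and 5.21 CPM in small ones, with both maxima in mouse 5 and 0 counts in both libraries of mouse 2. Cnn1 (ENSMUSG00000001349, chromosome 9, 22010512 to 22020926; calponin, an inhibitor of myosin ATPase) ran from 0.20 to 10.1 CPM in large clones and from 0 to 7.28 CPM in small ones. Its maximum, in large clones of mouse 2, stood beside 0 counts in small clones of the same mouse. Lmod1 (ENSMUSG00000048096, chromosome 1, 135252545 to 135295803; leiomodin, a nucleator of actin filaments) had 7.02 and 18.1 CPM in large and small clones of mouse 6 and 14.4 and 4.11 CPM in mouse 1. It stayed at or below 1.74 CPM in the other 4 mice. Lmod1 was thus highest in mouse 6 among small clones, the mouse with the lowest mean of the set.

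Smtn (ENSMUSG00000020439, chromosome 11, 3467523 to 3490612), a smoothelin that binds actin stress fibres, had 32.4 and 48.7 CPM in large and small clones of mouse 4 and 44.7 and 12.7 CPM in mouse 5. In the other 4 mice it was at most 7.43 CPM. Mice 4 and 5 stood above the rest in both clone sizes, whereas for Myl9 mouse 4 stood below mouse 1 in both. The average was 14.7 ± 19.0 CPM over large-clone libraries and 11.7 ± 18.7 over small-clone ones (SD, 6 mice).

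Des (ENSMUSG00000026208, chromosome 1, 75336973 to 75345223) encodes desmin, the intermediate filament protein that links contractile units in muscle. In mice 1 to 6 it had 38.8, 4.95, 2.06, 15.99, 42.1 and 1.56 CPM in large clones, and 85.4, 11.2, 37.7, 24.5, 29.2 and 0 CPM in small clones. Mice 1 and 5 were high in both and mouse 6 low in both. Mouse 3 differed between its libraries by 3.66 on the log2(CPM + 1) scale, with the higher value in small clones, whereas Myl9 and Mylk were higher in its large clones. The average was 17.6 ± 18.5 CPM over large-clone libraries and 31.3 ± 29.7 over small-clone ones (SD, 6 mice).

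**Figure D3:**
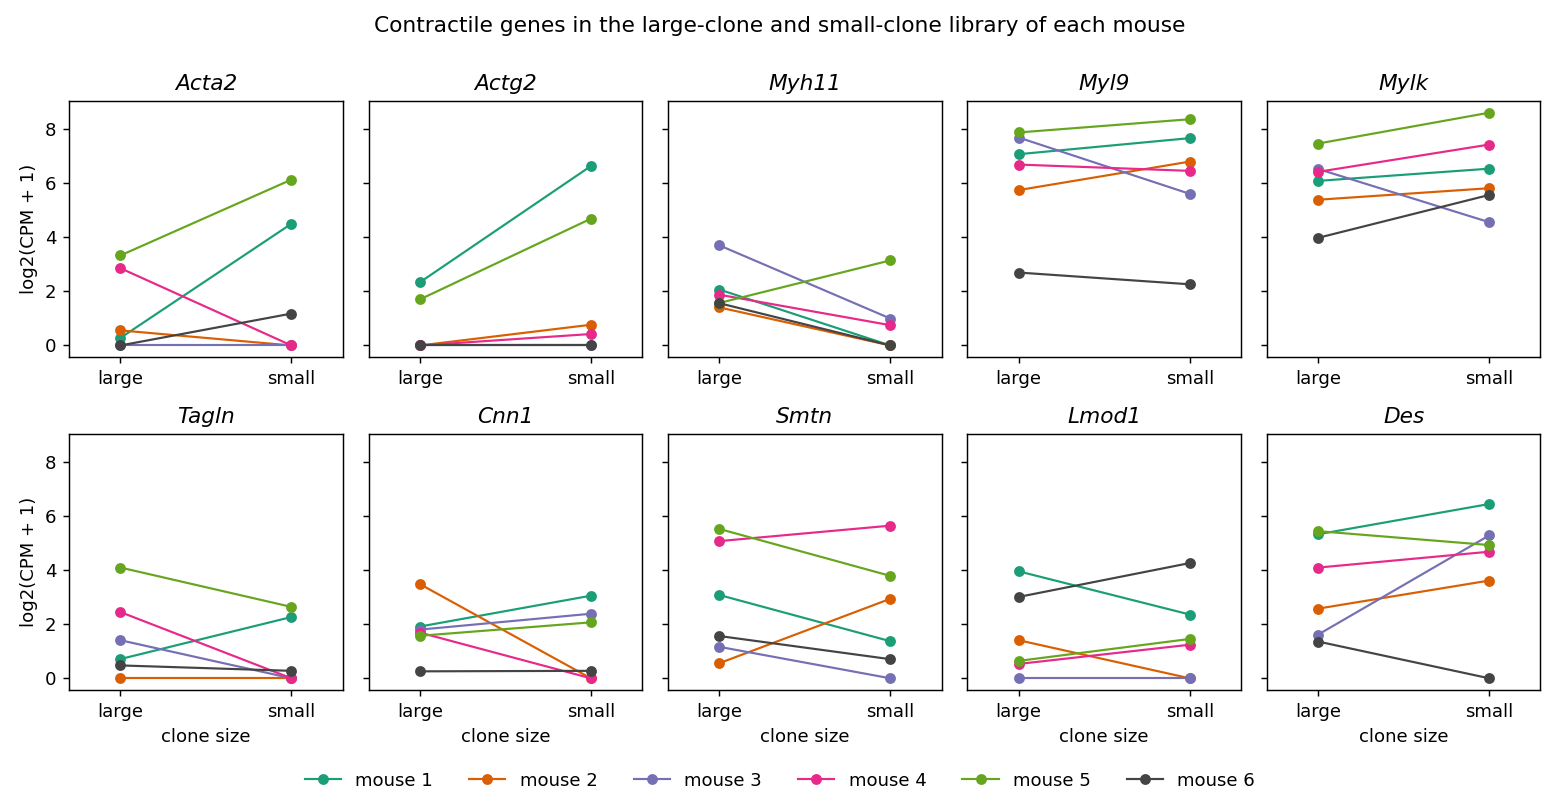
Level of each gene as log2(CPM + 1) in large and small clones, with a line joining both libraries of a mouse and 1 colour per mouse. For Myl9, mouse 5 is highest and mouse 6 lowest in both clone sizes and the line of mouse 3 crosses 3 others, while those for Acta2 and Actg2 lie near 0 in most mice, with the highest points in small clones of mice 1 and 5.

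Members differed in how far they followed the rest. Across the 12 libraries, Pearson's r of a gene's log2(CPM + 1) with the mean of the other 9 was 0.76 for Acta2 and Mylk, 0.74 for Tagln, 0.71 for Myl9, 0.70 for Actg2 and 0.63 for Des. It was 0.38 for Smtn, 0.33 for Cnn1, 0.21 for Myh11 and -0.22 for Lmod1. These are descriptions of libraries that come in pairs from 6 mice and share their depth and scaling. By the same measure, the 8 genes outside the set most like its mean were Becn1 (beclin 1, of autophagy), Pafah1b3, Aldh9a1, Ipo11 (an importin), Derl2, Entpd5, Adss and Sdad1, with r from 0.85 for Sdad1 to 0.88 for Becn1. None is a member of a muscle list used here. Derl2, the most abundant of them at a mean of 46.2 CPM, had 106 and 132 CPM in mouse 5 and 12.1 and 8.55 CPM in mouse 6.

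Between clone sizes the estimates are given as a description, since the set was chosen on levels of this contrast. The filter on low counts kept 4 of the 10 for the model, Des, Mylk, Smtn and Myl9, and edgeR's quasi-likelihood test called 0 of them at an adjusted p under 0.05. It also called 0 of 10848 genes in all (0%), and 2.54% had an unadjusted p under 0.05, none of the 4 among them. The log2 fold change, large against small, was -0.83 (SE 1.15) for Des, -0.71 (SE 0.74) for Mylk, 0.33 (SE 1.35) for Smtn and -0.09 (SE 0.87) for Myl9. Each SE, here and below, is the absolute log2 fold change over the square root of the test's F statistic. The fit had no mouse term, so it is not the error of the difference within mice. Libraries of large and small clones overlapped for all 10 genes, where 0.0645% of tested genes had groups without overlap. The same direction in 6 of 6 mice was found for 0 of 10 and for 2.24% of tested genes. Both shares are over genes that passed the filter, which 6 of the 10 did not, so the sets are unlike. With mouse as a block these log2 fold changes were -0.59, -0.52, 0.99 and 0.08, so the sign for Myl9 changed. DESeq2 called 5 genes and, with the block, 42 genes, none of them contractile.

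Myl9 and Mylk were lower on average in libraries with the higher chemoreceptor share, with overlapping ranges. Myl9 ran from 86.1 to 325 CPM in the 7 libraries with the lower share and from 3.78 to 132 CPM in the 5 with the higher share. Mylk ran from 54.9 to 385 and from 14.7 to 66.4 CPM. Mice 1, 2 and 3 each had 1 library of either kind, and in all 3 both genes were lower in the library with the higher share. For Myl9 these were 132 against 200.2, 52.3 against 109 and 47.4 against 203 CPM, and for Mylk 66.4 against 91.1, 40.6 against 54.9 and 22.4 against 90.3 CPM. This order held with library totals and with DESeq2 size factors as scaling too. How many of all genes tested were lower there in all 3 mice was not counted, so nothing is read from it. Other members varied: Lmod1 was higher in the library with the higher share in mice 1 and 2 and had 0 counts in mouse 3. Myh11 and Cnn1 were higher there in 2 of the 3 mice. Des and Smtn were lower there in 2 mice and higher in 1. Actg2 and Tagln were lower there in 2 mice and higher in 0, and Acta2 was lower in 1 and higher in 1. The summed CPM of the set, which Myl9 and Mylk dominate, was lower there in all 3 mice. In mice 1 to 3 it was 270.3 against 512.4, 112.2 against 182.8 and 112.7 against 312.9 CPM. Both libraries of mouse 6, with the lowest mean level of the set, had the higher share, and both of mice 4 and 5 the lower share. In these 3 mice alone the mean level differed by 0.40 within and 1.85 between mice. Other lists split by the share as well. Summed epithelial markers were 4304 to 8775 CPM in libraries with the lower share and 272 to 1338 CPM in the others, ciliated cell markers 1670 to 7586 and 243 to 963 CPM, and light-chain phosphorylation genes 4399 to 6783 and 1239 to 2504 CPM. Most of the epithelial sum was Krt18, at 3153 to 6900 and 209.5 to 1214 CPM. Epcam, Cdh1 and Cldn4 overlapped between both kinds of library, as did Foxj1, Tppp3 and Dnah5 of the ciliated list. The other genes of these lists did not overlap. Most of the sum of the light-chain phosphorylation list was Myl6, at 3635 to 6212 and 409.7 to 1446 CPM. Rock1 and Ppp1r12b of that list had the opposite order, at 46.4 to 133.8 and 225.7 to 412.5 CPM, and at 11.1 to 37.1 and 54.0 to 64.3 CPM. Its other genes overlapped between both kinds of library. The part of the share, or of these cell types, in the order of the mice was not tested.

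**Figure D4:**
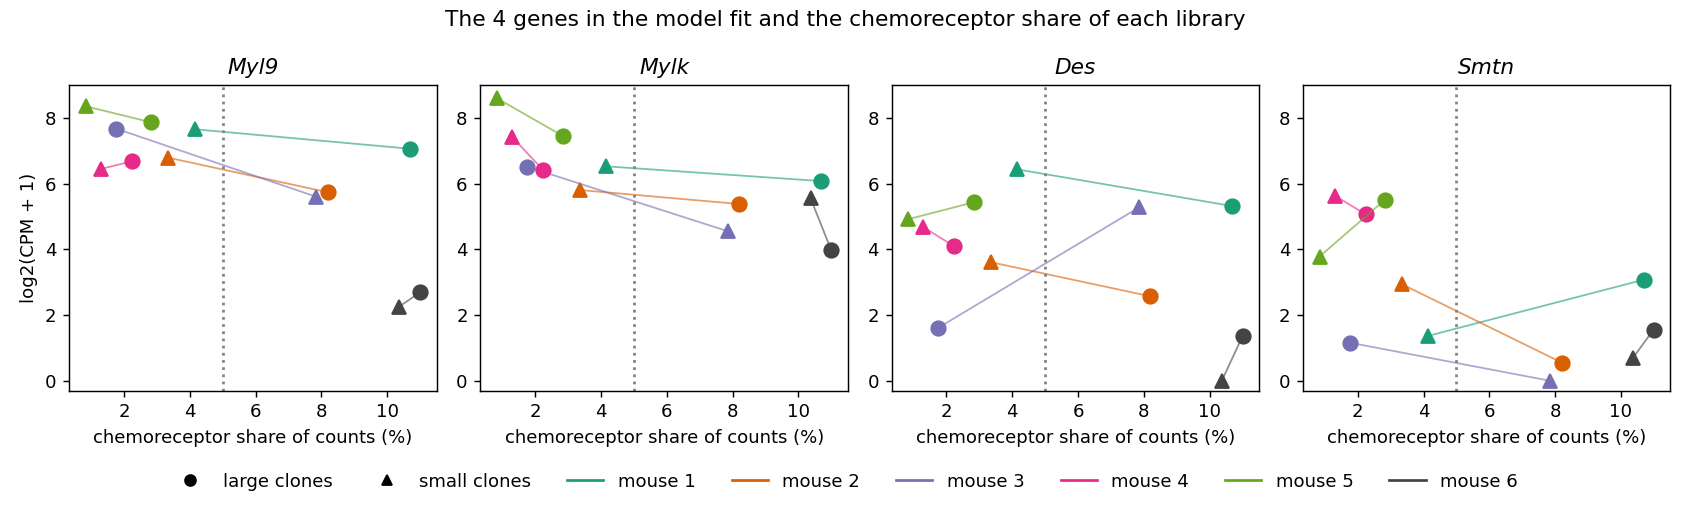
Level of the 4 contractile genes in the model, as log2(CPM + 1), against the share of counts on chemoreceptor genes in the same library, with lines joining both libraries of a mouse and a dotted line at 5%. In mice 1, 2 and 3, whose lines cross 5%, Myl9 and Mylk are lower on the right, whereas Des in mouse 3 and Smtn in mouse 1 are higher there.

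Other genes of the contractile pathway were taken from 4 lists of 51 genes, of which 40 were tested. In edgeR's quasi-likelihood test 0 were called in either direction, 0 had an unadjusted p under 0.05, and 20 had higher and 20 lower estimates in large clones, with a median log2 fold change of 0.02 against 0.06 for all genes tested. Among regulators, Srf, the serum response factor gene, had 0 counts in 6 or more libraries, while Myocd, its muscle partner, had 0.41 to 204 CPM and Mrtfb 74.0 to 351 CPM. The 7 regulators tested had a median of -0.28, those of Mrtfb and Myocd being -0.28 (SE 0.47) and 0.38 (SE 1.12). The order of mice differed from that of Myl9: in mouse 5, where Myl9 was highest, Myocd had 37.4 and 1.45 CPM in large and small clones.

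Of 17 other thin-filament, dense-body and costamere genes, 13 were tested, with a median of 0.17. Among them Flna, filamin A, which cross-links actin filaments, had an estimate of 0.10 (SE 0.95). Their mean log2(CPM + 1) differed by 0.38 within and 0.76 between mice. Of 13 genes of light-chain phosphorylation, 11 were tested, with a median of 0.27 (Myl6, the essential light chain, -0.05, SE 0.72; Rock1 0.51, SE 0.59). Their mean differed by 0.34 within and 0.26 between mice. Of 13 genes of calcium handling and contractile receptors, 9 were tested, with a median of -0.59 (Itpr1 -0.59, SE 0.72; Ryr2 -0.37, SE 0.85), and their mean differed by 0.45 within and 0.64 between mice. Whether the contractile set differed from these lists in agreement was not tested.

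Non-muscle relatives were above some members and below others. Per kilobase, Actb and Actg1, the cytoplasmic actins, had means of 405 and 331 CPM, Tagln2 82.7, Cnn2 33.8, Cnn3 3.40 and Myh9 4.95, each above its smooth muscle relative. The non-muscle light chains Myl12b and Myl12a, at 10.1 and 0.18, were below Myl9, and Myh10, at 0.24, was below Myh11. Of these 10 relatives 8 were tested and 0 called, with a median of 0.12. Their mean log2(CPM + 1) differed by 1.05 within and 1.21 between mice. Their summed level was 1908 to 3625 CPM in libraries with the lower chemoreceptor share and 316 to 1060 CPM in those with the higher share.

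Markers of other cell types were summed beside the members. Pericyte markers, which could travel with vessel muscle, ran from 55.4 to 163 CPM in large and from 20.6 to 850 CPM in small clones, the highest being small clones of mouse 3, where Acta2 and Actg2 had 0 counts. Most of the sum in that library was Kcnj8 (529.5 CPM) and Rgs5 (260.9 CPM). Abcc9 had 49.95, Cspg4 8.68 and Notch3 0.50 CPM there, and Pdgfrb and Mcam had 0. Fibroblast markers ran from 15.99 to 582 and from 37.5 to 186 CPM, endothelial markers from 59.6 to 398 and from 57.7 to 140 CPM, and mesothelial markers from 117 to 395 and from 73.7 to 348 CPM. Epithelial markers ran from 272 to 8737 and from 767 to 8775 CPM, ciliated cell markers from 243 to 4960 and from 357 to 7586 CPM, and secretory cell markers from 1233 to 4112 and from 1260 to 8160 CPM. Immune markers ran from 0.44 to 260 and from 19.6 to 112 CPM, and red blood cell genes from 200.4 to 5928 and from 33.0 to 2137 CPM. Defining genes at 0 counts in 6 or more libraries were Mcam of pericytes, Cldn4 of epithelium, Cdh5 and Tek of endothelium, Cd52 and Lyz2 of immune cells, Alas2 of red cells, and Upk1b and Lrrn4 of mesothelium. The part of these cell types in the levels of the contractile genes was not tested.

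Of all 131 genes in the 15 other lists, 91 were tested and 0 called in edgeR's quasi-likelihood test. At an unadjusted p under 0.05 there were 5, named here after their values were seen, each with an adjusted p of 0.9998 in edgeR: Pdgfrb, Dcn and Kdr with higher and Myh7 and Kcnj8 with lower estimates in large clones. Those of Pdgfrb (a pericyte receptor) and Kcnj8 (a pericyte potassium channel subunit), 3.81 (SE 1.23) and -3.90 (SE 1.53), had opposite signs. Small clones of mouse 3 held 79.2% of the counts of Kcnj8. Large clones of mouse 4 held 64.0% of those of Dcn and 59.4% of those of Kdr. Among all genes tested, 2.54% had an unadjusted p under 0.05.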

How the data were processed

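RNA of 200 pooled cells per library was obtained by laser microdissection and proteinase K digestion, amplified from poly(A) tails and made into Nextera XT libraries, per the labels' protocols. The authors deposited expected counts for 35509 genes, of which 22.7% of entries are not whole. The submitters' processing notes name RSEM, Bowtie2 and GRCm38 without versions of the tools. Column names refer to isoform results of RSEM while rows are genes, and how isoforms were joined is not given in the sources used here. 1 row without a symbol was left out of the named genes.

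Expected counts were rounded and tested with edgeR 4.0.16 (TMM, filterByExpr, quasi-likelihood test, Benjamini-Hochberg adjustment, 10 residual degrees of freedom). The filter kept 10848 genes with 97.2% of counts. Levels are CPM on TMM-scaled library sizes, with 1 CPM added before log2. DESeq2 1.42.0, limma 3.58.1, other scalings, filters, covariates, leaving out each mouse, and a mouse block were alternatives. The fit and the agreement measure were tested on simulated data. Per the labels, a shared number marks a shared mouse. Correlations of their deviations from the group means were -0.016, -0.01, -0.371, 0.273, 0.507 and 0.629 in mice 1 to 6. PCR copies carry no molecular identifiers, so floors cover counting error only. The 10 genes and all lists were chosen with earlier results of these data known. Named beside the 10 were the 2 genes of highest mean CPM of each list, the non-muscle relatives, and the 8 genes most correlated with the mean of the set. 1 gene that this rule names is not reported here.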

Additional observations from a re-analysis of the deposited data

Results flagged for a closer look

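In 8 of 22 groups of 6 libraries, 1 library stood apart from the rest, by Dixon's critical value for the gap to the nearest library over the group's range. The 8 were single genes, or 40% of the 20 groups of a gene and a clone size. The same rule set a library apart in 21.6% of such groups over the genes tested and in 43% over all genes with a count, so the share for the contractile genes is near the latter. With normally spread values chance would give about 1 in 20. Among large clones these were Myh11 in mouse 3 (11.96 CPM from 29 counts, next 3.18), Tagln in mouse 5 (16.01 CPM from 57 counts, next 4.44) and Cnn1 in mouse 2 (10.1 CPM from 43 counts, next 2.76). Among small clones they were Acta2 in mouse 5 (68.6 CPM, next 21.5), Actg2 in mouse 1 (97.4 CPM from 308 counts, next 24.6) and Myh11 in mouse 5 (7.82 CPM from 27 counts, next 0.99). Lmod1 in mouse 6 (18.1 CPM from 86 counts, next 4.11) and Smtn in mouse 4 (48.7 CPM from 143 counts, next 12.7) were the other small-clone libraries. All 8 were the highest library of their group.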

How the results depend on the processing

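The mean difference of the 10 genes within mice, 0.44, was 0.88 from summed CPM and 0.89 over the 6 genes outside the model, a choice added after seeing the data; without each mouse in turn it ran from 0.37 to 0.52. Between mice, 1.33 was 0.85 with 5 CPM added, 1.85 in the 3 mice with both libraries on 1 side of the 5% chemoreceptor share and 1.86 over the 4 genes in the model, also added after seeing the data; without each mouse it ran from 1.08 to 1.47. Large minus small, -0.05, ran from -0.16 to 0.10 without each mouse, and was 0.22 without the actins, -0.39 from summed CPM and -0.15 with 5 CPM added. With the mouse as a replicate block, edgeR called 0 genes, as without it. DESeq2 called 5 genes and, with the replicate block, 42; the cause was not tested. Of the contractile genes tested, 0 were called under each alternative run: all 10 without the low-count filter, 2 with at least 10 counts in every library, 6 in the 7 libraries with the lower share, 3 without mouse 5, and 4 otherwise. Without each mouse edgeR called 0 genes, and 180 (without mouse 4) to 492 (without mouse 3) had an unadjusted p under 0.05, against 275. Log2 fold changes of Des ran from -1.35 to -0.54, of Mylk from -0.98 to -0.11 and of Smtn from 0.22 to 1.81, and those of Myl9 from -0.48 to 0.64, so Myl9 has no stable sign. Single values were also compared with the main setting: fold changes of all tested genes of every list, and within-mouse differences of the 10. A value counted as moved when it changed by at least its SD over mice. By this wide rule 6 moved and 1581 did not. Smtn at 1.81 (SD 1.61) and the change of sign of Myl9 (SD 1.11) count as not moved, so stability is not read from these numbers. Depth limits the actins, Myh11, Tagln, Cnn1 and Lmod1, each with at most 423 counts in all.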
